A study of Mus musculus with 6 samples.

Results

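DNA methylation in mouse pluripotent stem cells induced with small molecules (C-iPSCs) was compared with that in mouse embryonic stem cells (mESCs) by reduced representation bisulfite sequencing (RRBS). In RRBS, CpG-rich DNA fragments cut by the enzyme MspI are treated with bisulfite, which turns unmethylated cytosine into a base read as T and leaves methylated cytosine as C. The comparison used the 2 libraries of C-iPSCs and the 2 libraries of mESCs, which are 4 of the 6 RRBS libraries at hand. CpGs with at least 10 reads in each of these 4 libraries were compared, which left 961300 of the 1531642 CpGs with a read in any library. The methylation level of a CpG is the share of its reads that are methylated. The C-iPSCs were made from OG2 mouse embryonic fibroblasts, from mice of C57BL/6J, CBA/CaJ, and 129S4/SvJaeJ background, with a cocktail of VPA, CHIR99021, an inhibitor of the TGF-β receptor, tranylcypromine, forskolin, AM580, and EPZ004777, with DZNep, 5-aza-2′-deoxycytidine, and SGC0946 added at a later stage. They were male and at passages 5 to 10. The mESCs were the male line E14 at passages 20 to 30. Both cell types were grown in serum with leukemia inhibitory factor and the inhibitors CHIR99021 and PD0325901 (2i), and the labels describe feeder cells that were removed before collection, whereas the study's methods name gelatin-coated plates. Strain, passage, and origin therefore differ between the cell types together, and their parts cannot be told apart. Levels in the 2 libraries of 4F-iPSCs, which were made with Oct4, Sox2, Klf4, and c-Myc, are given beside some results and entered no test. Nothing in the labels says that replicate libraries came from separate cultures, so the spread between these libraries may be technical. Fisher's exact test on reads summed over libraries does not measure that spread. The quasi-binomial tests below took it from many CpGs, promoters, or gene bodies together, and not from each one alone.

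In mammals, the methyltransferases Dnmt3a and Dnmt3b place methyl groups on CpGs, and Dnmt1 with Uhrf1 copies the pattern after replication. CpG islands, which are dense in CpGs and often lie at promoters, are mostly kept free of methylation, whereas isolated CpGs in introns and between genes are mostly methylated in somatic cells. Growth in 2i is known to lower methylation across the genome of mESCs. Imprinted genes are expressed from one parental copy because their control regions carry methylation from only one germline, and such regions are normally near the midpoint between unmethylated and fully methylated.

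Sequences are shown for the lost regions at imprinted genes, to be read beside 3 gained promoters. Coordinates are those of GRCm38 and the strand is plus. Capitals mark the CpGs that were compared. The 6 regions with runs of lost CpGs lie at the promoter of Plagl1 (chr10:13090824-13091121), in an exon of Gnas (chr2:174299957-174300052), in an exon of the Kcnq1ot1 transcript inside Kcnq1 (chr7:143295410-143295443), across the edge of the Airn promoter and an intron within Igf2r (chr17:12742382-12742421), in the promoter window of Meg3 (chr12:109540591-109540645), and at the promoter of H19 (chr7:142578165-142578243). The lost promoter of Peg3 (chr7:6730262-6730328) is shown by the stretch that holds its compared CpGs.
Plagl1: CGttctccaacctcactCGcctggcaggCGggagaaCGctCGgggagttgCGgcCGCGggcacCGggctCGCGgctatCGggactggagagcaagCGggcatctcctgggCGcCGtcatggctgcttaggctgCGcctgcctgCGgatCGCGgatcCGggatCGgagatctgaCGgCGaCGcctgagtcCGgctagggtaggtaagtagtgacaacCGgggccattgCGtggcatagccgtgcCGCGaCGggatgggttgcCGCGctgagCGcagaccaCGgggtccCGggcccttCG
Gnas: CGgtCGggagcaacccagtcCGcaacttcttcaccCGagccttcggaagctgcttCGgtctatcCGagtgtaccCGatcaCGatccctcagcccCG
Kcnq1ot1: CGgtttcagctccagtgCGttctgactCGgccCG
Airn: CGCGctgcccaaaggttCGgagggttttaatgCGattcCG
Meg3: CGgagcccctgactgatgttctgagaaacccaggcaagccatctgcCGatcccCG
H19: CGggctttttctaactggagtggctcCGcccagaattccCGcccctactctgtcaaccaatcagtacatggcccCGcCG
Peg3: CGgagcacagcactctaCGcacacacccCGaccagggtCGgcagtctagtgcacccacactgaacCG

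The 3 gained promoters shown for comparison are that of the noncoding RNA gene Gm32885 (chr15:97166893-97167040), that of Rtp2 (chr16:23931650-23931776), which encodes a protein that brings chemosensory receptors to the cell surface, and that of Fkbp6 (chr5:135349693-135349853), which is needed for meiosis in male germ cells.
Gm32885: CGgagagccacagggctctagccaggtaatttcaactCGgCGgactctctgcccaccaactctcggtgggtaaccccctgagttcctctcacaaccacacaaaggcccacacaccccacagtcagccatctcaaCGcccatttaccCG
Rtp2: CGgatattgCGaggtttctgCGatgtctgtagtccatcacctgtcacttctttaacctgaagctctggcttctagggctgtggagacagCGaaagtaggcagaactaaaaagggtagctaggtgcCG
Fkbp6: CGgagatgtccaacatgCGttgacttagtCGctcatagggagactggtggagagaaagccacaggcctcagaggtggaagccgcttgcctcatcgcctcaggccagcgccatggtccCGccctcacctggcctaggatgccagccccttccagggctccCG
CpGs per 100 bases number 12.5 in the Airn stretch, 12.4 in Plagl1, 11.8 in Kcnq1ot1, 10.4 in Gnas, 7.46 in Peg3, 6.33 in H19, and 5.45 in Meg3. The gained stretches of Gm32885, Rtp2, and Fkbp6 hold 4.05, 3.94, and 4.97, so that Meg3 and H19 lie close to Fkbp6.

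C-iPSCs were more methylated than mESCs over all compared CpGs. The mean level was 25.2% and 29.7% in C-iPSC replicates 1 and 2, and 20.1% and 21.9% in mESC replicates 1 and 2. Both C-iPSC libraries were thus above both mESC libraries. The means were 27.4% ± 3.15 (SD, n = 2) and 21% ± 1.26 (SD, n = 2), a difference of 6.42 percentage points. With 2 libraries against 2, the smallest p that a two-sided exact permutation test can give is 0.333, and that was its value. The smallest difference between a C-iPSC and an mESC library was 3.29 points, between C-iPSC replicate 1 and mESC replicate 2, and the largest was 9.54 points, between C-iPSC replicate 2 and mESC replicate 1. Replicates of one type differed by 4.46 points for C-iPSCs and 1.79 points for mESCs, so the spread between C-iPSC replicates exceeded the smallest difference between types. Levels of at least 80% were found at 8.41% and 16.9% of CpGs in the C-iPSC libraries and at 2.33% and 3.82% in the mESC libraries. The libraries held between 53694199 and 91533371 reads on CpGs, and the median number of reads at a compared CpG was 73 and 64 in C-iPSCs and 58 and 43 in mESCs. Reads called methylated on mitochondrial DNA, which is little methylated, made up 3.12% and 5.38% in C-iPSCs and 5.39% and 3.29% in mESCs, so this measure did not separate the types.

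Gains far outnumbered losses at single CpGs. Every C-iPSC library was above every mESC library at 313929 CpGs (32.7% of those compared) and below at 41014 (4.27%), and the libraries overlapped or tied at the remaining 63.1%. A CpG was called gained in C-iPSCs when its libraries were separated in this way, its level from summed reads differed by over 33.3 points, and a two-sided Fisher's exact test of those reads had an unadjusted p under 0.05. By this rule 22841 CpGs were gained (2.38%) and 170 were lost (0.0177%). The lowest C-iPSC library exceeded the highest mESC library by a median of 26.2 points at gained CpGs, and the lowest mESC library exceeded the highest C-iPSC library by a median of 29.7 points at lost CpGs. A quasi-binomial test, with the spread between libraries pooled over CpGs, kept 16618 gained and 119 lost CpGs at a Benjamini-Hochberg adjusted p under 0.05. Median levels at gained CpGs were 68.1% and 76.7% in C-iPSCs and 28.4% and 38.5% in mESCs. At lost CpGs they were 18.5% and 24.6% in C-iPSCs and 62.9% and 66.7% in mESCs. In 4F-iPSCs the medians were 84.8% and 83.3% at gained CpGs and 55.4% and 61.3% at lost CpGs. The number of gained CpGs depended on the libraries. Leaving out replicate 1 or replicate 2 of the C-iPSCs gave 60723 or 14174 gained CpGs, and leaving out replicate 1 or replicate 2 of the mESCs gave 16959 or 48778. For lost CpGs these numbers were 162, 377, 427, and 277. C-iPSC replicate 2 was above replicate 1 at 80.6% of gained CpGs and at 56.1% of all.

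The size of the difference depended on the level in mESCs, called the starting level here. C-iPSCs came from fibroblasts, whose levels were not examined. Gained and lost therefore name differences from mESCs and not changes over time. CpGs were grouped by the mean level of both mESC libraries, a description without a test because the groups use one side of the comparison. At the 469882 CpGs under 5% in mESCs, which are 48.9% of those compared, the mean level was 1.01% and 1.27% in C-iPSCs and 0.607% and 0.676% in mESCs. From 20 to 40%, it was 40.9% and 51.6% in C-iPSCs and 27.7% and 32.3% in mESCs, a difference of 16.2 points. From 40 to 60%, it was 63.7% and 74.8% against 47.2% and 53.6%, and this difference of 18.9 points was the largest of the 6 groups. From 60 to 80%, it was 77.7% and 86.5% against 66.4% and 71.3%, a difference of 13.3 points. At CpGs from 80% upward it was 87.6% and 92.6% against 83.9% and 87.1%, where the groups were only just separated. The difference was thus 23.2%, 38.1%, 42.6%, and 31.7% of the methylation that mESCs lacked in these 4 groups. It was 4.78% of it from 5 to 20% and 0.5% under 5%. These shares differed between the C-iPSC replicates, at 15.5% and 30.8% from 20 to 40%, 26.9% and 49.3% from 40 to 60%, 28.5% and 56.7% from 60 to 80%, 14.5% and 48.9% from 80% upward, 1.81% and 7.76% from 5 to 20%, and 0.372% and 0.628% under 5%. When CpGs were grouped by one mESC library and compared with the other, the difference from 40 to 60% was 14.6 or 21.6 points, and from 80% upward it was 7.42 or 12.7 points. Of the gained CpGs, 11517 started from 20 to 40% and 7264 from 40 to 60%, whereas of the 170 lost CpGs, 62 started from 40 to 60%, 59 from 60 to 80%, and 39 from 80% upward. A CpG needs room for a change of 33.3 points, so no loss could be called from under 33.3% summed and few gains from high levels. In 4F-iPSCs the levels from 20 to 40% were 59.3% and 60.7%, and from 40 to 60% they were 81.3% and 82.6%.

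**Figure D1:**
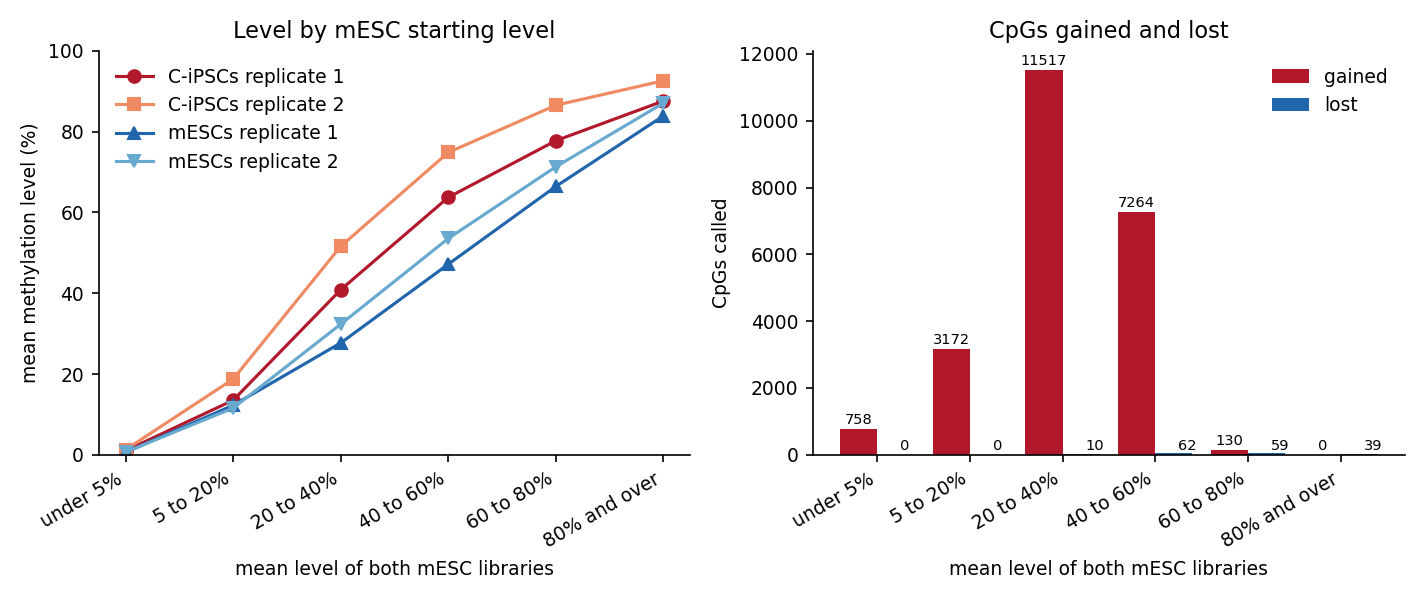
Left, mean methylation level (%) in each of the 4 libraries at compared CpGs grouped by the mean level of both mESC libraries. Right, number of CpGs gained and lost in each group. Both C-iPSC libraries lie above both mESC libraries in every group, and gains peak at 11517 CpGs from 20 to 40%.

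The gain was spread over every chromosome. Both C-iPSC libraries were above both mESC libraries in mean level on 21 of 21 chromosomes. On the autosomes the difference was between 5.62 points (chromosome 19) and 6.92 points (chromosome 1). Chromosome 1 had levels of 27.7% and 32.3% in C-iPSCs and 22.1% and 24.1% in mESCs, and chromosome 19 had 21.9% and 26.0% against 17.6% and 19.13%. Chromosomes differ in their mix of starting levels. When the difference was averaged within the 6 starting levels at common weights, the autosomes lay between 6.13 and 6.78 points (SD 0.181 over chromosomes, against 0.391 before). The X chromosome, present once in these male cells, had levels of 36.5% and 40.9% in C-iPSCs and 30.0% and 32.3% in mESCs. Its difference of 7.57 points became 6.13 points within starting levels, at the lower edge of the autosomes. The Y chromosome had 898 compared CpGs with 56.7% and 63.8% in C-iPSCs and 51.7% and 56.2% in mESCs, and its libraries were separated by only 0.509 points. In windows of 1 Mb with at least 50 CpGs from 20 to 80% in mESCs, 2106 of 2122 had both C-iPSC libraries on top and 0 had both below. The window that came out lowest, with a difference of -0.601 points, was that on chromosome 10 from 13 Mb, which holds Plagl1. Lost CpGs were not spread in this way: 40 of 170 lay on chromosome 7 (0.0665% of its compared CpGs) and 28 on chromosome 10 (0.0556%), against 0.0177% of all compared CpGs, and the highest share was on Y, with 8 of 898 (0.891%). On chromosome 10, 25 of the 28 lay in the lost Plagl1 stretch. On chromosome 7, 4 of the 40 lay in the lost Kcnq1ot1 stretch, 3 in that of H19, 1 in the Peg3 promoter, and 5 in the Zfp629 DMR. At another 13 on chromosome 7, the median over neighbours within 100 bp was not lower by 5 points or more.

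**Figure D2:**
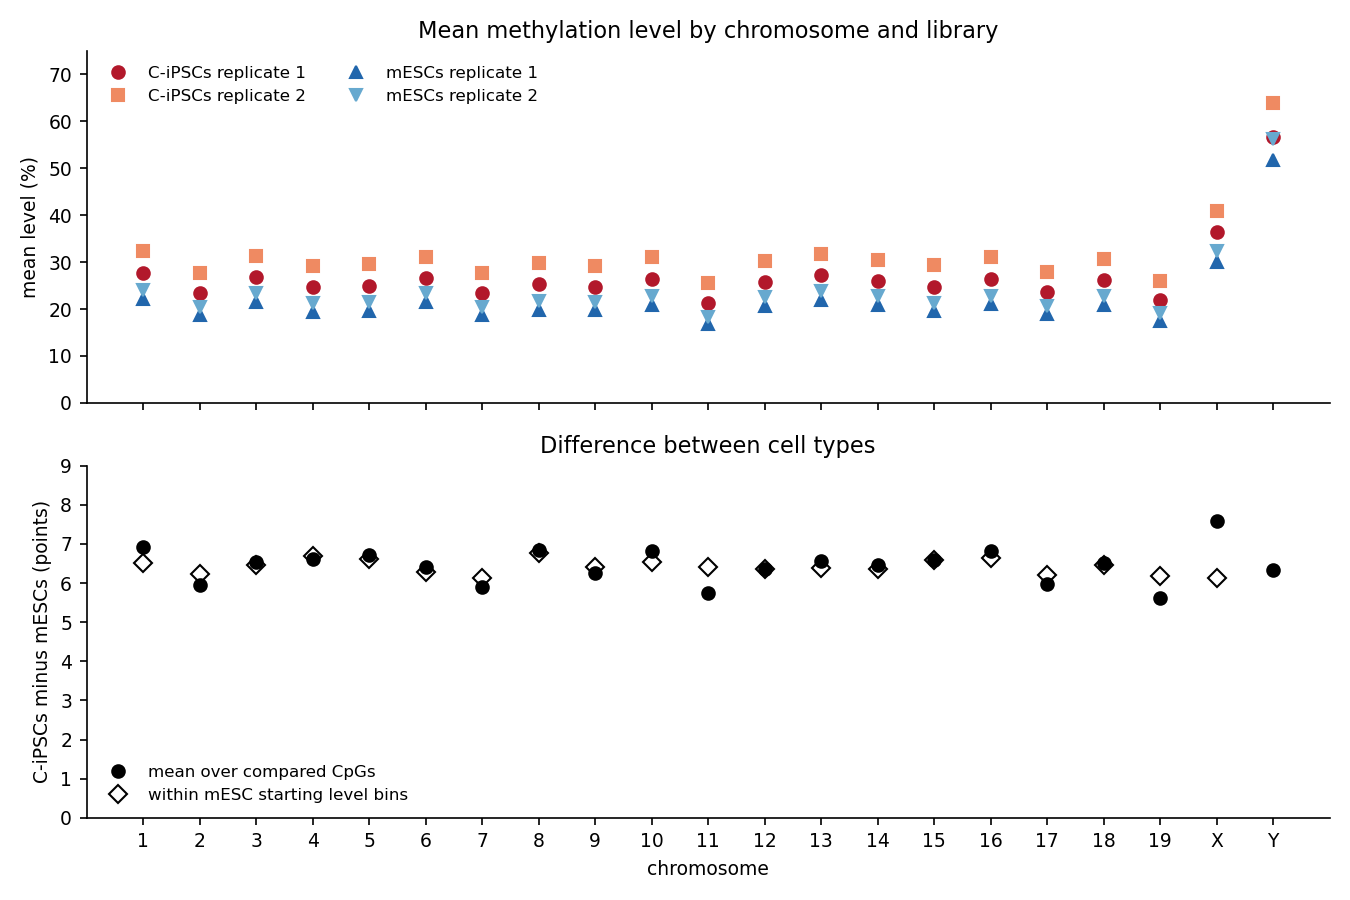
Top, mean methylation level (%) of the compared CpGs of each chromosome in the 4 libraries. Bottom, C-iPSCs minus mESCs in percentage points, as the mean over compared CpGs (filled) and averaged within mESC starting levels (open, not given for Y). The filled points of the autosomes lie between 5.62 and 6.92 points, and X falls from 7.57 to 6.13 points within starting levels.

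Gains were mostly outside promoters and were few where CpGs were densest. The share of CpGs gained was 4.14% with at most 2 other CpGs within 100 bp, 5.46% with 3 to 5, 5.02% with 6 to 9, 2.25% with 10 to 14, and 0.0386% with 15 or more. Within 1 kb of a transcript start, the mean level was 5.15% and 6.62% in C-iPSCs and 4.93% and 4.84% in mESCs, a difference of 1.00 point. Introns had 49.0% and 57.5% in C-iPSCs and 38.0% and 41.9% in mESCs, exons outside promoters 39.9% and 46.5% against 30.2% and 34.0%, and intergenic sequence 52.7% and 60.8% against 41.6% and 45.8%. The differences of these places were 13.3, 11.1, and 13.1 points. Promoters held 53.9% of compared CpGs but 8.05% of gained CpGs. At CpGs with at most 2 other CpGs within 100 bp, the level was 62.4% and 73.8% in C-iPSCs and 50.7% and 54.3% in mESCs, a difference of 15.6 points. At CpGs with 15 or more, it was 2.53% and 3.33% against 2.85% and 2.61%, and the libraries of the types overlapped. Such dense CpGs were 45.6% of those compared, 0.740% of those gained, and 30.0% of those lost.

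CpG density went with the difference also among CpGs of the same starting level. From 40 to 60% in mESCs, the difference was 19.6 points with at most 2 other CpGs within 100 bp, 19.9 with 3 to 5, 18.7 with 6 to 9, 14.3 with 10 to 14, and 8.98 with 15 or more. From 20 to 40%, the 14292 sparsest CpGs differed by 18.8 points. The 4739 densest CpGs of this starting level had 19.12% and 25.4% in C-iPSCs and 26.2% and 24.3% in mESCs, so that C-iPSC replicate 1 was below both mESC libraries and C-iPSC replicate 2 was between them. From 40 to 60%, 2.95% of the densest CpGs were lost, 32 of 1086, and 23 of these 32 lay in promoters. The lost Plagl1 region alone held 22 of the 32. Weighted to a common mix of starting levels, the difference fell from 11.1 points at the sparsest to 1.61 points at the densest CpGs, and promoters stood at 4.79 against 8.20 in introns. Once density was held constant as well, promoters stood at 5.37 and introns at 6.86 points.

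**Figure D3:**
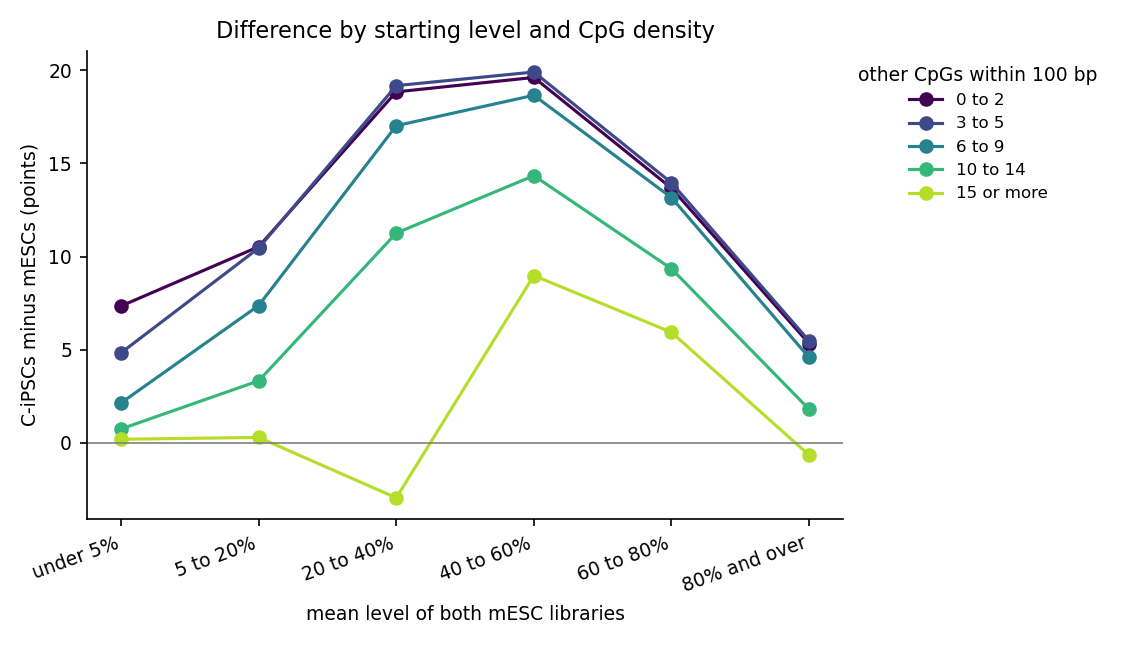
C-iPSCs minus mESCs in percentage points for CpGs grouped by the mean level of both mESC libraries (x axis) and by the number of other CpGs within 100 bp (lines). From 40 to 60%, the difference is 19.6 points for 0 to 2 other CpGs and 8.98 points for 15 or more, and the densest CpGs are below 0 from 20 to 40% and from 80% upward.

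The difference was also compared by repeats and by the bases beside the CpG. Soft-masked repeats had 51.7% and 58.2% in C-iPSCs and 41.8% and 45.6% in mESCs, a difference of 11.2 points, against 5.70 elsewhere. At equal starting level and density, the values were 6.85 and 6.49 points. Among the 15 combinations of neighbouring bases other than CCGG, the site cut by MspI, the difference at equal starting level and density was highest for ACGT at 9.06 points and lowest for CCGA at 6.33 and its complement TCGG at 6.41. The 17888 ACGT sites had 24.5% and 29.0% in C-iPSCs and 13.8% and 18.3% in mESCs, and 6.56% of them were gained, against 1.37% of CCGA sites.

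The reads of each strand were looked at separately at called CpGs. They are parts of the reads that made the call, so this is a description and no independent check. Of 10367 gained CpGs with at least 10 reads on each strand in the 4 libraries, 9942 were separated on both strands, and so were 62 of 65 lost CpGs. Called CpGs outside these 10367 and 65 lacked the reads for this. For each called CpG, the median difference over the other compared CpGs within 100 bp was taken. For gained CpGs the median of these values was 26.0 points higher in C-iPSCs. At 1.34% of the 20299 gained CpGs with such a neighbour, the value in the same direction was under 5 points. For lost CpGs that share was 31.3%, or 51 of 163 with a neighbour. The cell types come from different mouse strains, and a CpG that a strain lacks can be read as a difference in level. Its part was not tested.

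Runs of calls were joined into differentially methylated regions (DMRs) where at least 3 CpGs moved the same way with neighbours at most 300 bp apart. There were 1488 gained DMRs, which held 26.0% of gained CpGs, and 13 lost DMRs, which held 42.9% of lost CpGs. Gained DMRs numbered 5265 or 824 when C-iPSC replicate 1 or 2 was left out and 827 or 3962 when mESC replicate 1 or 2 was, and lost DMRs numbered 21 without C-iPSC replicate 2. The gained DMR with the most called CpGs, 21 of 24 compared, lay between genes at chr1:137155619-137156365 mostly in soft-masked repeat. Its level was 84.4% and 78.1% in C-iPSCs and 39.6% and 42.9% in mESCs. A DMR of 20 called CpGs between genes at chrX:150019516-150020227 had 82.0% and 76.0% in C-iPSCs and 22.2% and 29.1% in mESCs, also mostly in repeat sequence. In an intron of Pkhd1, the gene of polycystic kidney and hepatic disease, 17 CpGs at chr1:20486320-20486832 had 79.5% and 75.9% against 21.9% and 34.1%. In these 3 repeat DMRs replicate 1 of the C-iPSCs was the higher one, unlike the mean over all CpGs. Outside repeats, 16 CpGs in an exon of Camta1, which encodes a calmodulin-binding transcription activator, had 57.8% and 67% in C-iPSCs and 14.7% and 19% in mESCs (chr4:151144836-151145492). Another 16 between genes at chr4:140497154-140497471 had 59.8% and 73.8% against 17.3% and 31%. In 4F-iPSCs these 5 regions had levels between 82.4% and 95.5%.

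Few promoters differed. A promoter was tested when at least 5 compared CpGs lay within 1 kb of a gene's transcript starts, with a quasi-binomial test on reads summed over its CpGs, and was called when the adjusted p was under 0.05 and the libraries of the types were separated in mean CpG level. Of 15183 promoters with distinct CpGs, 277 were gained (1.82%) and 12 were lost (0.0790%). The dispersion of this test followed a trend over reads that was added after the data were seen, and without it 468 were gained and 16 lost. Both C-iPSC libraries were above both mESC libraries at 24.6% of promoters and below at 5.66%. Gained promoters had few CpGs, with a median of 8 against 28 for all promoters, and a median level of 41.6% in mESCs against 2.97%. Protein-coding genes were 28.9% of the gained and 77.7% of the tested promoters. These calls did not hold in every setting. Without mESC replicate 1, when the dispersion comes from the C-iPSC replicates alone, 0 promoters were gained and 0 lost, and without mESC replicate 2 the counts were 2 and 2. At an unadjusted p under 0.05, 72 separated promoters were higher and 12 lower without mESC replicate 1. Without C-iPSC replicate 1 the count of gained promoters was 1409. Limma on mean CpG levels called 0 either way, with 1517 higher and 80 lower at an unadjusted p under 0.05.

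The gained promoter with the widest separation was that of Gm32885, whose sequence is shown above. Its 5 compared CpGs had 61.8% and 72.1% in C-iPSCs and 4.12% and 8.10% in mESCs (adjusted p = 1.10e-09, quasi-binomial test with limma's squeezeVar), and 88.0% and 80.7% in 4F-iPSCs. The pseudogene Gm48388 had 72.4% and 79.7% against 25.8% and 27.6%. Among promoters of protein-coding genes, 1700018B08Rik had 48.9% and 61.6% against 12.2% and 11.1%. The promoter of Rtp2 had 69.1% and 81.9% against 29.0% and 33.9%, and that of the olfactory receptor Olfr1033 had 58.2% and 64.3% against 17.1% and 24.6%. The other promoters among the 12 gained with the widest separation belong to AC116849.1, Gm14514, Gm44333, Gm26024, Gm3786, Gm15571, and the microRNA gene Mir6905, and their separations ranged from 32.3 points at Mir6905 to 35.8 points at AC116849.1. Gm26024 did not pass without the trend over reads added after the data were seen (adjusted p = 0.319, quasi-binomial test with limma's squeezeVar). In 4F-iPSCs, AC116849.1 had 71.0% and 38.8% and Olfr1033 had 69.5% and 35.6%, so that the 4F-iPSC replicates differed widely there.

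Gene bodies had a larger share of gains than promoters in the test as set, an order that did not hold under every setting. A gene body was tested when at least 10 compared CpGs lay inside the gene and outside all promoters. Of 7645 gene bodies, 1795 were gained (23.5%) and 3 were lost (0.0392%), or 2705 and 5 without that trend, and both C-iPSC libraries were on top at 88.9% of them and below at 0.667%. The median difference over gene bodies was 14.3 points, against 0.241 over promoters. The widest separation was at Kctd8, which encodes an auxiliary subunit of GABA-B receptors, with 87.0% and 82.3% in C-iPSCs and 29.0% and 23.5% in mESCs over 10 CpGs (adjusted p = 1.64e-09, quasi-binomial test with limma's squeezeVar). Cyp2c38, a cytochrome P450 gene, had 81.9% and 77.8% against 45.6% and 37.5%. Catsperg1, which encodes a subunit of the sperm calcium channel, had 50.2% and 71.6% against 14.9% and 18.1%. The other 3 gained bodies by this rule were Gm49166, 1700011C11Rik, and Gm7598, with separations of 46.2, 42.1, and 34.9 points. Of these, 1700011C11Rik did not pass without the trend over reads (adjusted p = 0.129, quasi-binomial test with limma's squeezeVar). The 3 lost bodies were Kcnq1ot1 with 14.1% and 18.5% in C-iPSCs against 41.3% and 39.6% in mESCs, the zinc-finger gene Zfp629 with 37.5% and 43.6% against 65.5% and 62.8%, and Gnas with 11.1% and 13% against 27.8% and 32.4%. The count of gained bodies was 6220 without C-iPSC replicate 1 and 3 when at least 20 CpGs were required, fewer than the 61 promoters gained when at least 10 were required. It was 0 without either mESC library, where 8 bodies (without mESC replicate 1) and 131 (without mESC replicate 2) were separated and higher at an unadjusted p under 0.05 in the quasi-binomial test with limma's squeezeVar. Lost bodies were also 0 then.

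The lost promoters were at imprinted loci, whereas lost CpGs in general were more widely placed, with 33.5% between genes and 28.2% in introns. Of the 12 lost promoters, 10 have CpGs of a gene on a list of 44 imprinted genes, and the other 2, Gm27741 and Gm27596, lie at Plagl1 and at Meg3. On this list 37 genes had a tested promoter, in 35 distinct sets of CpGs. Of these 37, 11 were lost, 0 were gained, and 20 had both C-iPSC libraries below both mESC libraries, against 0.0790% lost and 5.66% below over all promoters. The median promoter level in mESCs was 2.97% over all promoters and 7.95% and 8.42% on this list. Promoters at low levels have little room for a loss, and shares at matched mESC level were not computed. The median difference of the list was -2.10 points against 0.241 over all promoters, but -0.49 points with 7 of 33 genes lost at 20 reads a CpG, and -0.09 points with 5 of 29 lost when 10 CpGs were required. At 8 of the 11 lost genes both C-iPSC libraries were under 11%. The count of lost genes was 15 and 13 when C-iPSC replicate 1 or 2 was left out. It was 0 and 1 when mESC replicate 1 or 2 was left out, and 0 with limma on mean levels.

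Plagl1, a zinc-finger transcription factor gene expressed from the paternal copy, lay with the overlapping Gm27741 at the widest separation among the lost promoters. Its promoter had 5.41% and 10.0% in C-iPSCs and 43.1% and 40.6% in mESCs over 39 CpGs (adjusted p = 1.65e-11, quasi-binomial test with limma's squeezeVar). In the 298 bases printed above, 25 of 36 compared CpGs were called lost. The CpGs of C-iPSC replicate 1 there lay between 0% and 15.9%, those of replicate 2 between 0% and 30.6%, and those of the mESC libraries between 15.8% and 67.2%. The lost DMR of Gnas, which encodes the stimulatory G-protein alpha subunit, comprised 9 of 9 compared CpGs, with 2.47% and 5.17% in C-iPSCs and 36.1% and 49.5% in mESCs. Every one of these 9 CpGs was at most 13.04% in C-iPSCs and at least 31.7% in mESCs. The tested promoter of Gnas as a whole had 4.93% and 6.45% against 7.95% and 7.63% and was not called.

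**Figure D4:**
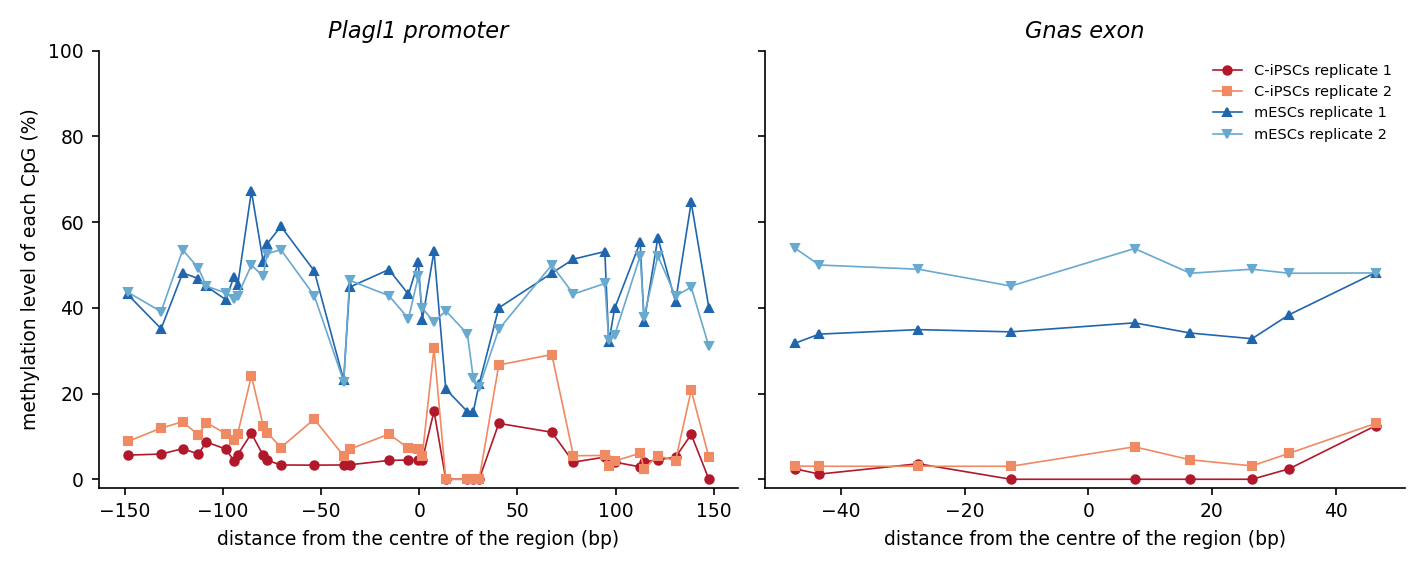
Methylation level (%) of each compared CpG against its distance in bp from the centre of the lost DMR at the Plagl1 promoter (36 CpGs) and in a Gnas exon (9 CpGs), with a line for each library. At Gnas every CpG is at most 13.04% in C-iPSCs and at least 31.7% in mESCs.

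C-iPSCs were also low at the other imprinted promoters with wide separations. The promoter of Airn, a noncoding RNA that silences Igf2r, had 4.15% and 3.57% in C-iPSCs and 31.1% and 35.5% in mESCs. That of Kcnq1ot1, which silences the neighbours of Kcnq1, had 5.39% and 1.80% against 35.3% and 26.9%, and the lost Kcnq1ot1 stretch printed above had 1.83% and 9.37% against 44.6% and 46.7%. Peg3, a zinc-finger gene of the paternal copy, had 6.07% and 9.94% against 36.5% and 43.4% over 5 CpGs. Snrpn and Snurf, which share 8 CpGs, had 7.36% and 4.93% against 33.9% and 34.8%. The promoter of H19, a noncoding RNA expressed from the maternal copy, had more methylation, with 16.0% and 32.0% against 56.9% and 59.2%. Gm27596, in the Meg3 locus, had 7.68% and 9.87% against 37.0% and 39.1%.

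The 4 further lost promoters, named after their values were seen, were less uniform. Nap1l5 had 7.61% and 4.41% in C-iPSCs and 24.7% and 25% in mESCs, and Zrsr1 had 4.64% and 4.10% against 22.9% and 18.9%. Meg3 itself had 15.3% and 19.8% against 36.9% and 38.9%. Peg13, a noncoding RNA, was at 43.7% and 60.3% in C-iPSCs and at 77.9% and 78.3% in mESCs. In 4F-iPSCs the promoters of Plagl1, Airn, Peg3, and Snrpn had levels between 51.6% and 63.9%, Nap1l5 had 54.0% and 69.9%, and Kcnq1ot1 had 30.0% and 38.1%.

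Other imprinted promoters were separated without passing the test. Nnat had 3.51% and 6.49% in C-iPSCs and 22.0% and 20.1% in mESCs (adjusted p = 0.0696), and Peg10 with Sgce had 10.0% and 3.66% against 20.2% and 30.4% (adjusted p = 0.0901). Of 16 tested bodies of imprinted genes, 3 were gained (Zim1, Peg10, and Trappc9), or 18.8% beside 23.5% over all bodies, and 2 were lost, or 12.5% beside 0.0392%. Peg10 for example had 59.2% and 74.1% in its body in C-iPSCs and 44.9% and 48.5% in mESCs.

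**Figure D5:**
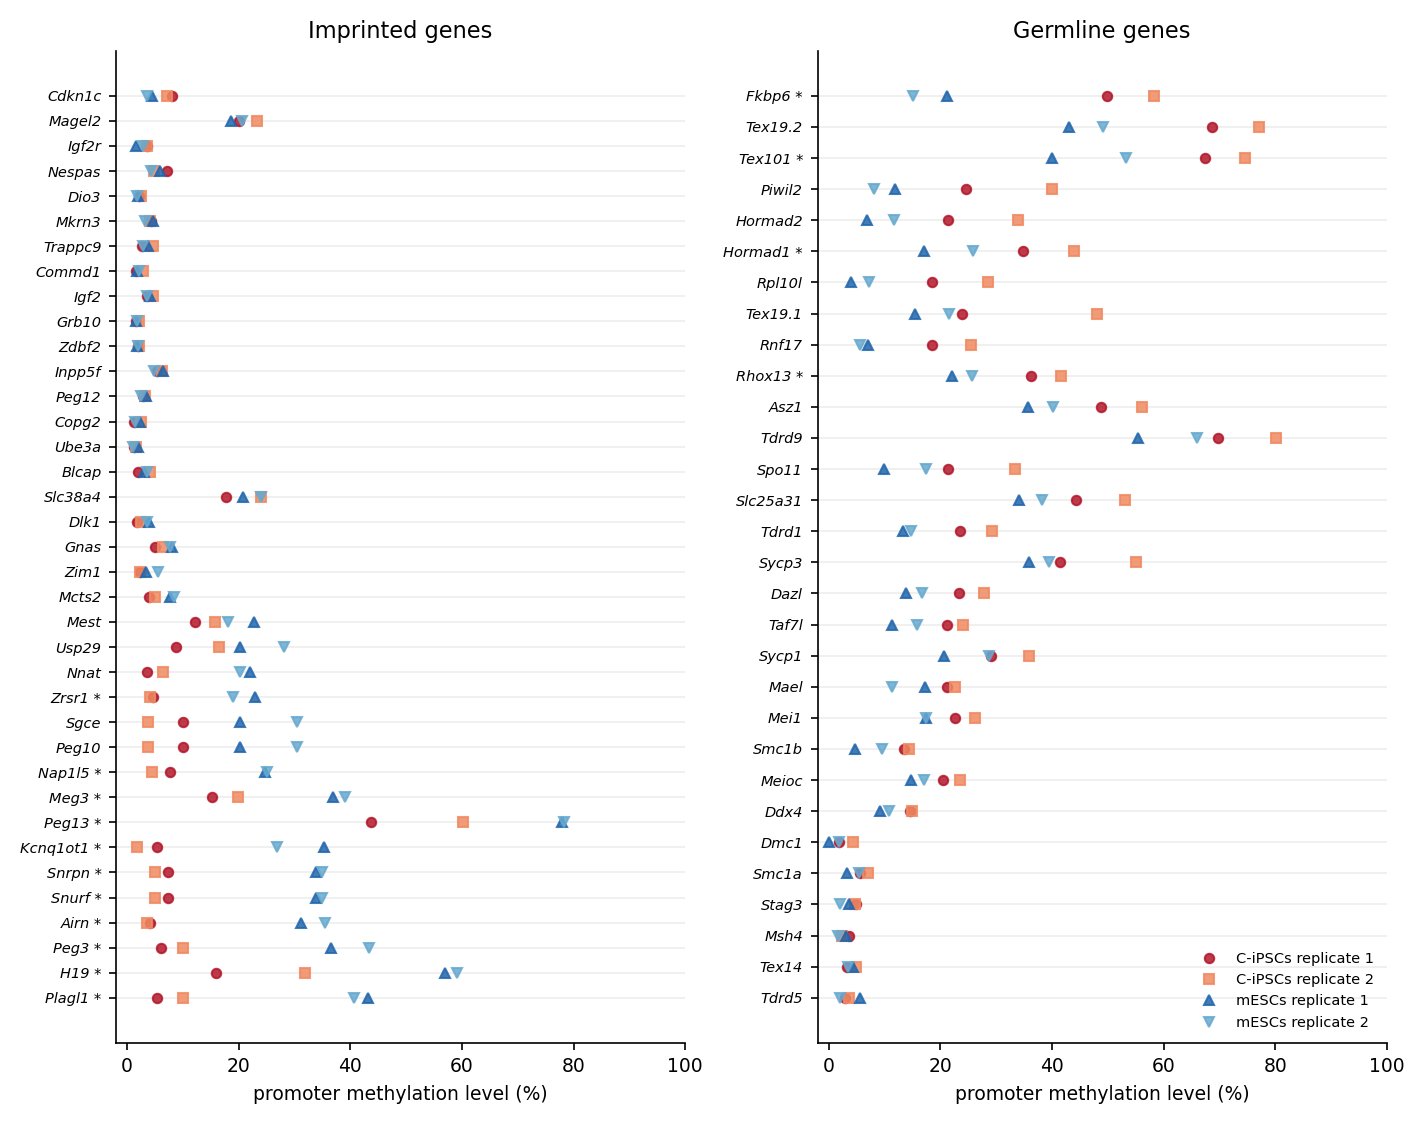
Promoter methylation level (%) of the measured genes of the imprinted list (left) and the germline list (right) in the 4 libraries, ordered by C-iPSCs minus mESCs, with an asterisk for promoters that passed the test. Plagl1 has 5.41% and 10.0% in C-iPSCs and 43.1% and 40.6% in mESCs, and Fkbp6 has 49.9% and 58.2% against 21.3% and 15.2%.

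Among the 5 lost DMRs with the most called CpGs, those at chr4 and Zfp629 lie outside the imprinted list. The DMR of 5 CpGs between genes at chr4:14845726-14845745 had 32.6% and 47.3% in C-iPSCs and 79.2% and 81.3% in mESCs, and 10.8% and 6.34% in 4F-iPSCs. The 5 lost CpGs in an exon of Zfp629 (chr7:127611030-127611280) were part of 14 compared ones with 33.9% and 38.3% against 67.2% and 57.6%, and 84.4% and 83.5% in 4F-iPSCs.

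Promoters of germline genes, many of which are silenced by methylation in somatic cells, were mostly higher in C-iPSCs in level. How many passed the test depended on its settings. On a list of 40 genes, 30 had a tested promoter. Both C-iPSC libraries were above both mESC libraries at 27 of these 30 and below at 0, against 24.6% above over all promoters. In the test as set 4 were gained, or 13.3% against 1.82%. The median difference was 11.4 points against 0.241. These promoters had median levels of 13.6% and 15.5% in mESCs, against 2.97% over all promoters. The difference at single CpGs depended on the mESC level, and promoters of matched mESC level were not compared. Without the trend over reads added after the data were seen, 15 were gained, beside 468 of all 15183 promoters. Within replicate numbers 16 were gained, beside 1340 of all promoters. With limma on mean levels 0 were gained. When 10 CpGs were required, 1 of 21 was gained, beside 61 of all promoters. Fkbp6 had 49.9% and 58.2% in C-iPSCs and 21.3% and 15.2% in mESCs, and Tex101, a surface protein of germ cells, had 67.5% and 74.6% against 40.1% and 53.4%. Hormad1 and Rhox13 were the other promoters gained in the test as set. They had 34.9% and 44.0% against 17.1% and 25.8%, and 36.2% and 41.7% against 22.1% and 25.8%. Tex19.2 had 68.7% and 77.1% against 43.1% and 49.2% (adjusted p = 0.0535), and Piwil2, a protein that binds small RNAs in germ cells, had 24.7% and 40.03% against 11.9% and 8.05% (adjusted p = 0.127), and neither passed the test. When each library was left out in turn, the median difference of the list stayed between 7.68 and 16.0 points. The calls moved with the library left out, as they did over all promoters, and did not hold without either mESC library.

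Promoters of lineage genes were mostly at low levels in all 4 libraries. Of 30 tested promoters of lineage transcription factors, 1 was gained, or 3.33% against 1.82% over all promoters. It was that of the gonad and brain factor Lhx9, with 17.3% and 19% in C-iPSCs and 5.90% and 6.29% in mESCs. The median difference of this list was 0.266 points, but -0.30 without C-iPSC replicate 2 and -0.01 without mESC replicate 2, so it has no stable direction. Among 13 trophoblast and 10 extraembryonic endoderm promoters, 0 were gained and 0 were lost, against 1.82% and 0.0790% over all promoters. The widest separations there were at Rhox6, with 28.8% and 26.8% against 13.1% and 19.18%, and at Hnf4a, with 69.2% and 79.6% against 51.0% and 54.2%. Without the trend over reads, 1 extraembryonic endoderm promoter and 0 trophoblast promoters were gained. Elf5, a factor of the trophoblast lineage, had 34.8% and 44.0% against 26.0% and 29.9% at its promoter, and its body was gained. Of 15 promoters of methylation enzymes, readers, and imprint regulators, 0 were called, and Dnmt3b had 1.74% and 2.21% against 1.63% and 1.80%. Of 9 tested bodies of this list, 9 had both C-iPSC libraries on top, against 88.9% over all bodies, and 1 was gained, against 23.5% over all bodies. It was that of Dnmt3b, with 75.1% and 83.8% against 57.7% and 67.4%. Without the trend over reads added after the data were seen, 5 of the 9 were gained, beside 2705 of all 7645 bodies. With limma on mean levels 5 were gained, beside 4385 of all bodies. Whether this list had a smaller share of gains than all bodies thus depended on the setting.

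The labels were also checked against markers. The 10 tested promoters of pluripotency genes, several of which are known to be methylated in fibroblasts, had at most 10.2% in C-iPSCs and 12.1% in mESCs. Of these, 0 were called or separated. Over all promoters, 1.82% were gained, 0.0790% lost, 24.6% separated above, and 5.66% separated below. The promoter of Pou5f1 had 5.76% and 6.71% in C-iPSCs and 5.85% and 8.70% in mESCs. The 6 tested promoters of fibroblast genes were at most 9.43% in any of the 4 libraries. Of these, 0 were called, against 1.82% gained and 0.0790% lost over all promoters. Of 6 tested bodies of fibroblast genes, 3 were gained and 0 lost, or 50% gained beside 23.5% over all bodies. Their median difference was 17.2 points against 14.3 over all bodies, and 0 of 5 were gained when 20 CpGs were required. Low promoter methylation of fibroblast genes does not separate fibroblasts from stem cells, so the share of feeder cells was not measured.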

How the data were processed

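The authors aligned read pairs to mm10 (GRCm38) with BSMAP (version 2.90, per the submitters' processing notes) and called CpGs with MOABS. The deposited tables give, per CpG, a total read count and a methylated read count, pooled over strands and per strand. The authors' methylated fraction served as a check of these counts. Bisulfite reads carry no molecular identifiers here, so precision from depth covers counting only.

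Members and gene lists were chosen with earlier results of these data known. CpGs needed 10 reads in each of 4 libraries. Calls used scipy 1.17.1 in Python 3.11.15. Gene annotation was GENCODE basic vM21. The quasi-binomial test used a Pearson dispersion shrunken with squeezeVar of limma 3.58.1 in R 4.3.3, and not below 1. The planned test named no trend. A trend over reads, fitted on levels from 0.1 to 0.9, was added after the data were seen, and the reported promoter and gene body calls use it. The estimated prior degrees of freedom were infinite, so that the trend alone set the dispersion. P-values were adjusted by the Benjamini-Hochberg method over all distinct promoters or gene bodies. Genes named are the 12 gained and 8 lost promoters, up to 6 gene bodies each way, and 5 DMRs each way with the widest separation or most called CpGs, and up to 5 per list. Scripts were tested on simulated data. 4F-iPSC libraries entered no test. RNA-seq was not used here.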

Additional observations from a re-analysis of the deposited data

How the results depend on the processing

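The mean difference between C-iPSCs and mESCs kept its direction in all alternatives, from 4.19 to 8.65 points without each library in turn, and was 6.39 points on autosomes, 6.23 weighted by reads, and 6.42 within replicate numbers (replicate block). Replicate numbers do not pair the libraries by any label, and the correlation over CpGs of replicate 1 minus replicate 2 between the types was 0.0409, and -0.147 at CpGs from 20 to 80% in mESCs. The replicate block left 22841 gained and 170 lost CpGs, as did crossed numbers, chosen after seeing the data, which the separation of all libraries in the call largely fixes. It raised promoters to 1340 gained and 25 lost and gene bodies to 5539 and 9. Without each library in turn, gained CpGs ranged from 14174 to 60723 and lost CpGs from 162 to 427, gained DMRs from 824 to 5265 and lost DMRs from 10 to 21, gained promoters from 0 to 1409 and lost promoters from 0 to 18, and gained bodies from 0 to 6220 and lost bodies from 0 to 6. Lost CpGs were 281 at 5 reads and 104 at 20 reads, where lost DMRs were 8. A difference above 0.2 gave 131754 gained and 1091 lost CpGs, and above 0.5 gave 1511 and 11. Thinned to 10 reads, 49541 were gained and 889 lost, among them 13434 and 104 of the original calls. Requiring 10 CpGs left 61 gained and 7 lost promoters, and 20 CpGs left 3 gained and 0 lost bodies. Limma on mean levels gave 0 gained and 0 lost promoters (1517 and 80 at an unadjusted p under 0.05) and 4385 gained bodies. At least 5 CpGs left 320 gained and 4 lost DMRs. The trend over reads in the dispersion was itself added after seeing the data. Without it, 468 promoters and 2705 bodies were gained and 16 promoters and 5 bodies lost. Grouped by mESC replicate 2 and compared with replicate 1, the differences under 5% and from 80% upward were 0.307 and 12.7 points. No tested result reversed. The causes were not tested. The median dispersion over promoters was 32.3 with all libraries and 75.4 without mESC replicate 1, which also removes a library.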

Other observations

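A small set of CpGs was nearly unmethylated in mESCs and at intermediate levels in C-iPSCs. Of 448455 CpGs under 5% in both mESC libraries, 424 were gained (0.0945%), with median levels of 45.6% and 50.8% in C-iPSCs, 0% and 2.13% in mESCs, and 78.5% and 75.4% in 4F-iPSCs. Chromosome 8 held 43 of them, 0.169% of its CpGs of this kind, with at most 4 in a window of 1 Mb.

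Some lost CpGs stood alone. The 51 lost CpGs whose neighbours within 100 bp were not lower in C-iPSCs by 5 points or more had median levels of 29.2% and 32.2% in C-iPSCs, 73.7% and 70.8% in mESCs, and 63.4% and 62.7% in 4F-iPSCs. Of these 51, 13 lay on chromosome 7, which held 60143 of the 961300 compared CpGs. Of the 13, 10 lay between 36 and 60 Mb. Those limits were set after the positions were seen, and the share of compared CpGs between them was not counted.

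With 2 libraries a type, no difference of a single mean can pass a permutation test.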
